A study of Homo sapiens with 3 samples.

Results

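The respiratory chain and ATP synthase genes of HaCaT keratinocytes were described in RNA-seq libraries from cells exposed to 2 kinds of particles and from unexposed cells. The genes were chosen by name among the protein-coding genes: the NDUFA, NDUFB, NDUFC, NDUFS and NDUFV families without the NDUFAF assembly factors, SDHA to SDHD, CYC1, the UQCR, COX4I, COX5 to COX8 and ATP5 families, and the 13 protein genes of the mitochondrial genome. The rule took 104 of the 58735 genes in the count table, of which 91 are nuclear encoded and 13 mitochondrially encoded. HaCaT is a single immortalised human keratinocyte line, labelled wild type here. The first group is a culture exposed to 50 µg/mL of the particulate sample labelled S1650b, the next a culture exposed to 25 µg/mL of carbon black (CB), and both exposures lasted 24 h in medium without serum. The control culture received no particles and is also labelled 24 h, but the labels do not say whether its medium lacked serum, so particle and medium cannot be told apart in any comparison with it. Each group holds 1 library, so no difference below has a replicate check and no test between groups was possible.

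Respiratory complexes I to IV pass electrons from NADH and succinate to oxygen. Complexes I, III and IV also pump protons out of the mitochondrial matrix, and complex V, the ATP synthase, uses the returning protons to make ATP. Complexes I, III, IV and V are assembled from subunits of both genomes, whereas the subunits of complex II are all nuclear encoded. The mitochondrial genes are transcribed from long polycistronic transcripts that are cut into single RNAs, and the nuclear genes are transcribed one by one, many of them with binding sites for NRF1 and for the ETS factor GABP in their promoters.

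The libraries held 20417744 counts in S1650b, 20946139 in CB and 20658247 in the control. Levels are given as CPM, the usual scaling of counts to library size, here with TMM factors, and a fold is the ratio of these levels with a 95% exact conditional binomial interval. Counting error is the only error in these intervals, which leave out any difference between cultures and treat reads copied by PCR as if they were independent molecules. They narrow as counts rise, so at the same fold an abundant gene more often has an interval that excludes 1. Shares of such intervals thus depend on counts as well as on folds. A gene is called lower or higher where its fold reached 1.5 and its interval lay on that side of 1. All 9 keratinocyte markers examined were detected, and their summed level was 6523 CPM in S1650b, 13203 CPM in CB and 14245 CPM in the control. KRT5, a basal keratin, had 2225, 5930 and 6979 CPM in the same order and KRT14 had 1402, 3923 and 4053 CPM, so these keratins weigh most in the sum. KRT6A, KRT16 and SFN were also lowest in S1650b, and PERP was lowest in CB. In contrast, TP63, the epidermal transcription factor, had 178, 163 and 143 CPM, KRT17 had 735, 489 and 545 CPM, and ITGA6 had 361, 269 and 274 CPM. The summed levels of other cell types were low in S1650b, CB and the control: 12.9, 30.4 and 92.8 CPM for 6 fibroblast markers, 44.1, 27.8 and 54.6 CPM for 4 endothelial markers, 2.64, 3.39 and 5.16 CPM for 4 melanocyte markers, and 0.134, 0.0499 and 0.0506 CPM for 4 immune markers. Among the fibroblast markers, DCN had 1.84 CPM in S1650b, 7.63 CPM in CB and 54.0 CPM in the control. COL3A1 had 3.72, 16.9 and 32.3 CPM in the same order, whereas COL1A1 had 6.99, 5.29 and 6.08 CPM. CDH5 had 41.2, 25.1 and 51.3 CPM and weighs most in the endothelial sum. TYR, DCT and CD68 had 0 counts in every library. The part of the keratinocyte marker difference in the results below was not tested, and in bulk RNA fewer cells of a type and less RNA per cell cannot be told apart.

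The nuclear genes and the mitochondrial genes of the chain stood in different proportions in the 3 libraries. The 91 nuclear genes took 0.867% of all counts in S1650b (95% exact binomial interval 0.863 to 0.871%), 1.37% in CB (1.36 to 1.37%) and 1.31% in the control (1.31 to 1.32%). The 13 mitochondrial genes took 5.15% in S1650b (5.14 to 5.16%), 3.65% in CB (3.64 to 3.66%) and 4.33% in the control (4.32 to 4.34%). S1650b was therefore the library with the lowest nuclear share and the highest mitochondrial share, and CB the library with the highest nuclear share and the lowest mitochondrial share. Mitochondrial counts per nuclear count came to 5.94 in S1650b, 2.67 in CB and 3.30 in the control, a proportion that does not depend on how libraries are scaled. It was 1.80 times the control value in S1650b and 0.807 times the control value in CB, and S1650b had 2.23 times the value of CB.

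**Figure D1:**
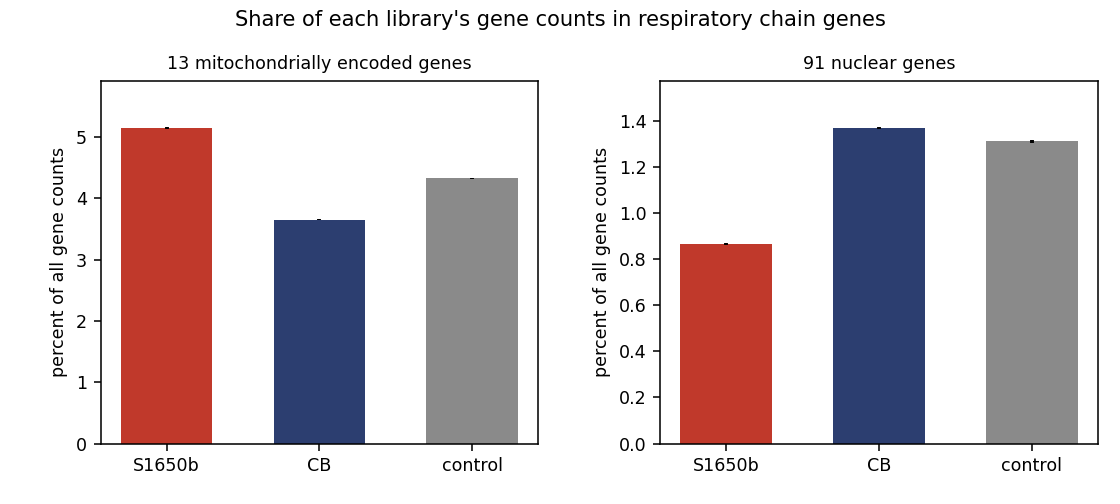
Share of each library's gene counts, in percent, taken by the 13 mitochondrially encoded genes (left) and the 91 nuclear genes (right) in S1650b, CB and control, with 1 library a bar and exact 95% binomial intervals as short black lines. S1650b has the tallest mitochondrial bar at 5.15% and the shortest nuclear bar at 0.867%.

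Of the 91 nuclear genes, 82 reached 1 CPM in at least 1 library. Against the control, 59 of these 82 (72.0%) were lower in S1650b and 0 were higher, where 19.2% of all 14619 genes at that level were called lower and 22.1% higher. Their median log2 fold was -0.73, against -0.044 over all genes. The interval lay below 1 in 77 of the 82 and above 1 in none, where 39.2% of all genes had an interval below 1 and 34.1% had one above. The median half-width of the intervals of the 82 genes was 0.089 on the log2 scale. Summed over the 91 genes, the level in S1650b was 1.73-fold lower than in the control (interval 1.72 to 1.74). The genes called lower came from every complex, with 23 of 37 in complex I, 3 of 4 in complex II, 7 of 9 in complex III, 11 of 12 in complex IV and 15 of 18 in complex V. The median log2 folds of these groups were -0.72, -0.83, -0.84, -0.83 and -0.66. Whether counting used strand is not stated in the sources, so overlapping genes are uncertain. Among the 45 nuclear genes with under 5% of exon sequence shared with another gene, 34 were called lower and the median was -0.75.

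**Figure D2:**
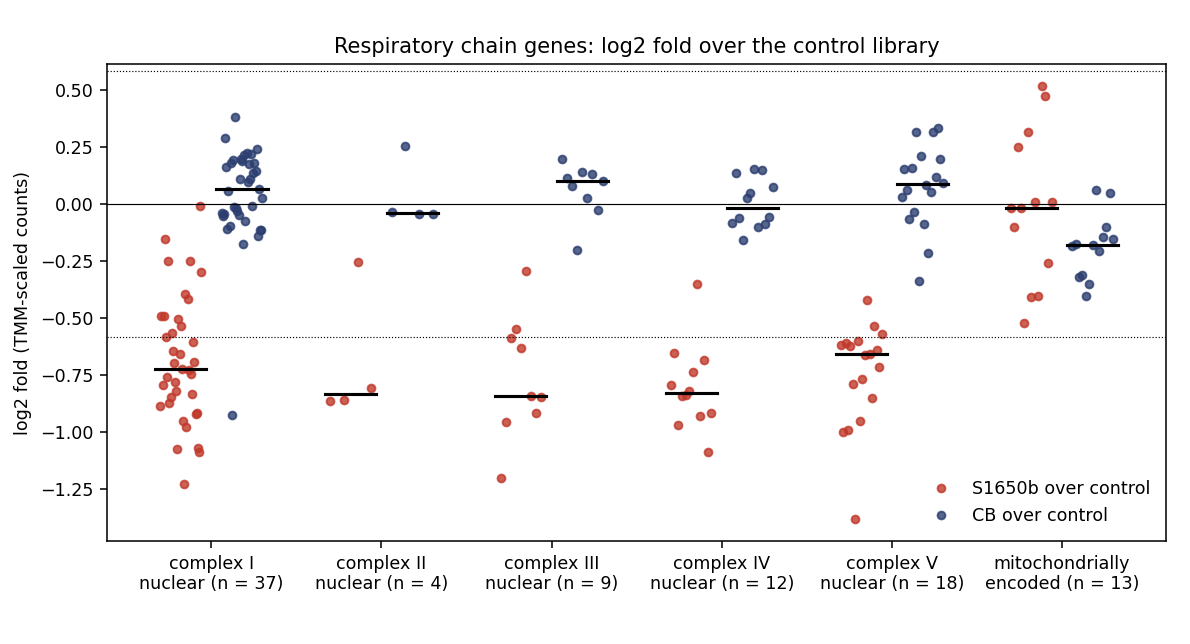
Log2 fold over the control library (vertical axis, from TMM-scaled counts) for each respiratory chain gene at 1 CPM or more except NDUFA4L2 and UQCRHL, grouped by complex, with S1650b left of CB, black bars at the medians and dotted lines at 1.5-fold. The medians of the nuclear genes of S1650b lie between -0.84 and -0.66 and those of CB between -0.039 and 0.10, whereas the mitochondrially encoded genes lie between -0.52 and 0.52 in both libraries.

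Complex I, the NADH dehydrogenase, carries its redox centres on 7 nuclear core subunits, and the other nuclear subunits are accessory. In S1650b 5 of the 7 core genes and 18 of 30 accessory genes were called lower, with median log2 folds of -0.83 and -0.70. NDUFB7, an accessory subunit (chr19:14566078-14572062 on GRCh38, minus strand), had 54.0 CPM in S1650b, 120 CPM in CB and 126 CPM in the control. Its level in S1650b was 2.34-fold lower than in the control (interval 2.19 to 2.51). NDUFV1, the core subunit that binds NADH and its flavin, had 194 CPM in S1650b, 382 CPM in CB and 413 CPM in the control, 2.13-fold lower in S1650b (interval 2.05 to 2.21). For both genes S1650b was the single low library, and CB differed little from the control. NDUFS1, the largest core subunit, had 110 CPM in S1650b, 153 CPM in CB and 131 CPM in the control and was not called. The highest folds within the complex belonged to scarce genes whose intervals span 1. NDUFA13 had 60 counts in S1650b, 67 in CB and 59 in the control, and NDUFV2 had 36, 30 and 32 counts in the same order. NDUFA7 had 13, 11 and 21 counts, too few to show a difference of 1.5-fold. More than 20% of the exon sequence of each of these 3 genes overlaps another gene, so their low counts are uncertain.

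Complex II, succinate dehydrogenase, links the tricarboxylic acid cycle to the chain. SDHA, the flavoprotein that oxidises succinate, had 219 CPM in S1650b, 388 CPM in CB and 398 CPM in the control, 1.82-fold lower in S1650b than in the control (interval 1.76 to 1.89). SDHB, the iron-sulfur subunit, had 70.5 CPM in S1650b, 153 CPM in CB and 128 CPM in the control, 1.81-fold lower in S1650b (interval 1.7 to 1.9). SDHD, a membrane anchor, had 81.1 CPM in S1650b, 138 CPM in CB and 142 CPM in the control, 1.75-fold lower in S1650b. SDHC, the other anchor, departed from these 3, with 122 CPM in S1650b, 142 CPM in CB and 146 CPM in the control, a difference of 1.19-fold that was not called. SDHA has expressed pseudogenes, which held 1905 counts in S1650b, 1396 in CB and 1575 in the control and were counted apart from it. They made up most of the pseudogene counts of the nuclear members, which came to 2198 in S1650b, 1801 in CB and 1956 in the control over 189 pseudogenes.

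Complex III, the cytochrome bc1 complex, had 9 nuclear genes at 1 CPM or more, and every interval in S1650b lay below 1. CYC1, the haem-carrying cytochrome c1, had 276 CPM in S1650b, 728 CPM in CB and 634 CPM in the control. It was 2.30-fold lower in S1650b than in the control (interval 2.23 to 2.37). UQCR10, a small subunit, had 70.4 CPM in S1650b, 148 CPM in CB and 137 CPM in the control, 1.94-fold lower in S1650b. The smallest differences were those of UQCRB, with 93.5 CPM in S1650b, 119 CPM in CB and 137 CPM in the control, and of UQCRC2, a core protein, with 177, 222 and 217 CPM in the same order. Neither was called, at 1.46-fold and 1.23-fold lower in S1650b.

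Complex IV, cytochrome c oxidase, was called lower in all but 1 of its nuclear genes in S1650b. COX8A had 107 CPM in S1650b, 219 CPM in CB and 228 CPM in the control, 2.12-fold lower in S1650b (interval 2.02 to 2.23), with 34.5% of its exon sequence overlapping another gene. COX5B, which has no such overlap, had 152 CPM in S1650b, 286 CPM in CB and 298 CPM in the control, 1.96-fold lower in S1650b (interval 1.88 to 2.05). COX5A stood nearest to the threshold among the called genes, with 65.4 CPM in S1650b, 113 CPM in CB and 103 CPM in the control, 1.58-fold lower in S1650b. COX7A2L, known for its part in supercomplexes of complexes III and IV, was the gene not called, with 86.2 CPM in S1650b, 102 CPM in CB and 110 CPM in the control. COX6A1 had 49.7, 79.8 and 89.1 CPM and COX7A2 had 77.4, 143 and 129 CPM in S1650b, CB and the control. NDUFA4, named for complex I but a subunit of complex IV, had 121, 242 and 229 CPM in that order and was called lower in S1650b.

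Complex V held the gene with the lowest fold of all nuclear members. ATP5MC1 (chr17:48892765-48895871 on GRCh38, plus strand), 1 of 3 nuclear genes that encode the c subunit of the proton-driven ring, had 47.3 CPM in S1650b, 154 CPM in CB and 124 CPM in the control. It was 2.61-fold lower in S1650b than in the control (interval 2.43 to 2.81). The 3 genes encode the same mature protein and did not stand alike. ATP5MC3 had 161 CPM in S1650b, 360 CPM in CB and 311 CPM in the control, 1.93-fold lower in S1650b, and ATP5MC2 had 131, 158 and 200 CPM, 1.52-fold lower in S1650b. ATP5MC2 was also the complex V gene with the lowest level in CB relative to the control, at 0.791-fold. ATP5F1B, the catalytic beta subunit, was the most abundant nuclear member, with 682 CPM in S1650b, 1516 CPM in CB and 1365 CPM in the control, 2.0-fold lower in S1650b (interval 1.96 to 2.04). All 5 genes of the catalytic F1 head were called lower, as were 9 of 12 genes outside it and ATP5IF1, the inhibitor of ATP hydrolysis, with 109 CPM in S1650b, 185 CPM in CB and 189 CPM in the control. ATP5PB, of the peripheral stalk, had 137, 215 and 199 CPM and was not called, and ATP5MG, of the membrane part, had 29.3, 33.7 and 39.2 CPM and was not called.

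Several subunits have a second gene whose expression is restricted to other tissues or conditions. COX4I2, COX6A2 and COX7B2 had 0 counts in every library, which allows up to 0.134 CPM in S1650b, 0.150 CPM in CB and 0.152 CPM in the control (3 counts). COX8C had 2 counts in S1650b and 0 in the other libraries, COX6B2 stayed under 0.4 CPM and COX7A1 under 0.9 CPM in each library. The exception was NDUFA4L2 (chr12:57234903-57240715 on GRCh38, minus strand), a hypoxia-inducible relative of NDUFA4, with 75 counts in S1650b, 149 in CB and 57 in the control. Its level in CB was 2.58-fold higher than in the control (interval 1.89 to 3.56), and its fold in S1650b, 1.16, had an interval of 0.815 to 1.67 that spans 1. UQCRHL, a retrocopy of UQCRH, had 10.0 CPM in S1650b, 12.9 CPM in CB and 10.9 CPM in the control. The remaining members below 1 CPM were ATP5MGL, a copy of ATP5MG, and the read-through genes ATP5MF-PTCD1 and NDUFC2-KCTD14.

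CB and the control were much closer than S1650b and the control. In CB 0 of 82 nuclear genes were called lower and 1, NDUFA4L2, was called higher, where 10.4% of all genes were called lower and 4.86% higher. The median log2 fold was 0.070, against 0.0049 over all genes, and the medians of complexes I to V were 0.065, -0.039, 0.10, -0.015 and 0.087. The interval lay above 1 in 36 of the 82 (43.9%) and below 1 in 11 (13.4%), where 27.7% of all genes had an interval above 1 and 25.9% below. The highest fold within complex I was that of NDUFAB1, the mitochondrial acyl carrier protein, with 113 CPM in CB against 86.9 CPM in the control, 1.30-fold higher (interval 1.22 to 1.39). ATP5PD, of the peripheral stalk, was 1.26-fold higher in CB than in the control, with 197 and 156 CPM. The lowest was NDUFA7, whose interval spans 1.

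S1650b and CB were compared directly, at 50 and 25 µg/mL, so particle and dose cannot be told apart. Of the 82 nuclear genes 66 were lower in S1650b than in CB and 0 were higher, where 20.8% of all genes were called lower and 26% higher. The median log2 fold was -0.78, against 0.014 over all genes. The interval lay below 1 in 79 of the 82 and above 1 in none, where 38.3% of all genes had an interval below 1 and 38.1% above. ATP5MC1 had the lowest fold, 3.25-fold lower in S1650b than in CB (interval 3.03 to 3.49), and CYC1 was 2.64-fold lower (interval 2.56 to 2.72). This comparison shares the S1650b library with that of S1650b and the control, and the comparisons with the control share the control library.

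In S1650b the folds of all genes moved with exon length and GC content, and the respiratory chain genes are short. The median exon length was 2468 bases for the 82 nuclear genes, 784 bases for the 13 mitochondrial genes and 4584 bases for all genes at 1 CPM or more. The median log2 fold of S1650b over the control was -0.30 in the shortest eighth of all genes and 0.49 in the longest, and it was 0.64 in the eighth with the lowest GC and -0.42 in the eighth with the highest. The GC content of the nuclear genes, a median of 48.2%, was near that of all genes, 49.3%. The 13 mitochondrial genes had a lower median GC content, 44.3%. In the eighth of all genes with a median GC of 44.6%, the median log2 fold of S1650b over the control was 0.23. After the length trend was removed, 44 of the 82 were lower and 0 higher, where 20.2% of all genes were called lower and 18.5% higher, and after both trends were removed 46 (56.1%) were lower and 1, NDUFA4L2, was higher, where 17.3% of all genes were called lower and 14.1% higher. The medians were then -0.62 and -0.64, against -0.063 over all genes with both trends removed. In the direct comparison with CB, 48 of the 82 nuclear genes were lower and 0 higher with both trends removed, where 18.5% of all genes were called lower and 20.8% higher.

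The correction moved single genes in both directions. SDHC, UQCRB, UQCRC2, COX7A2L, ATP5PB, ATP5MG and NDUFS1, none of them called on the scaled counts, were called lower with both trends removed, with log2 folds of -1.07, -1.49, -0.62, -0.68, -0.60, -0.63 and -1.07. COX8A, COX5B and COX5A were no longer called, at -0.55, -0.49 and -0.33. CYC1, NDUFB7, NDUFV1 and ATP5MC1 stayed called lower, at -0.64, -0.71, -0.81 and -1.03. The ranking of subunits within a complex thus depended on the correction, whereas each complex kept genes called lower with both trends removed, 16 of 37, 4 of 4, 6 of 9, 8 of 12 and 12 of 18 for complexes I to V.

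**Figure D3:**
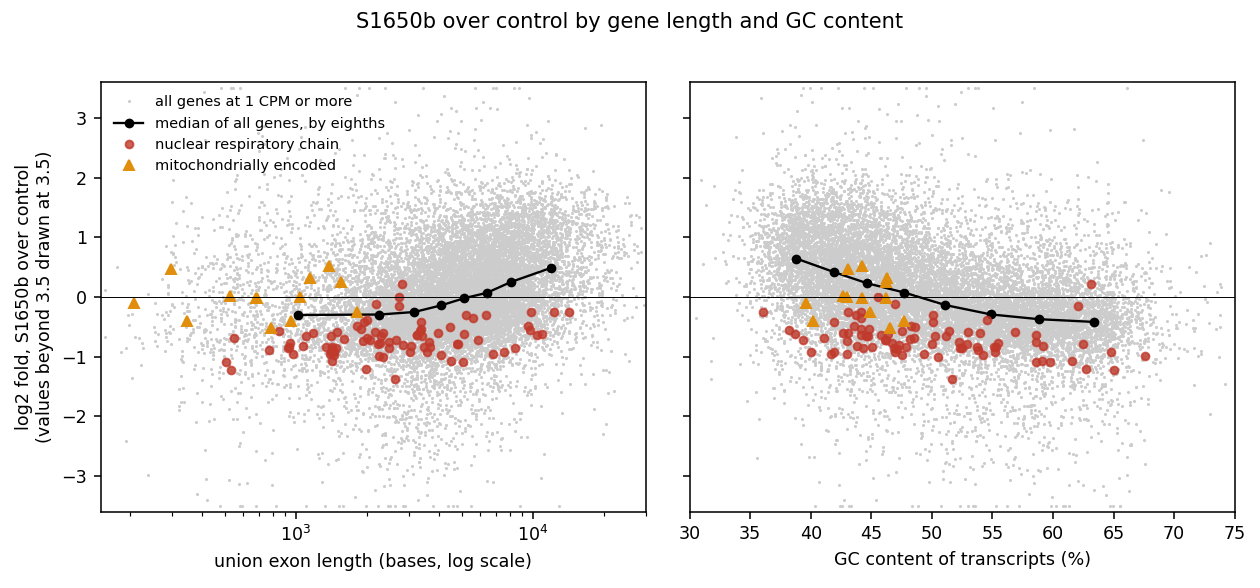
Log2 fold of S1650b over control for genes at 1 CPM or more against exon length in bases (left, log axis) and GC content in percent (right), with nuclear and mitochondrial members marked and values beyond 3.5 drawn at 3.5. The medians of all genes run from -0.30 in the shortest eighth to 0.49 in the longest, and 78 of the 82 nuclear members stayed below 0 with both trends removed.

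None of the 13 mitochondrially encoded genes was called lower or higher in S1650b than in the control on the scaled counts. Over all genes 19.2% were called lower and 22.1% higher. Their median log2 fold was -0.015, but above 0 under 3 other scalings, with protein-coding genes only and with the length trend removed, and their summed level was 1.04-fold that of the control. With the GC trend removed the median was -0.40 and 3 of the 13 were called lower, with no share over all genes given for that setting. With both trends removed the median was -0.057 and 1 was called lower, where 17.3% of all genes were called lower. The single genes differed in both directions on the scaled counts, with 4 intervals above 1 (30.8%) and 7 below (53.8%). Over all genes 34.1% had an interval above 1 and 39.2% below. The 13 genes are given here in the order of the genome. MT-ND1, a complex I subunit, had 1156 CPM in S1650b, 1353 CPM in CB and 1533 CPM in the control. MT-ND2 had 1841, 1912 and 1831 CPM in the same order, which differ little, although the interval of CB over the control lay above 1. MT-CO1, the catalytic subunit of complex IV and the most abundant member, had 17916 CPM in S1650b, 12042 CPM in CB and 15044 CPM in the control. It made up 38.0% of the counts of the 13 genes in S1650b, 31.6% in CB and 33.2% in the control. MT-CO2, which receives electrons from cytochrome c, had 5105 CPM in S1650b, 4156 CPM in CB and 5159 CPM in the control, with CB the low library.

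The next genes along the genome are MT-ATP8 and MT-ATP6, complex V subunits that share 1 bicistronic RNA, and MT-CO3. MT-ATP8 had 134 CPM in S1650b, 127 CPM in CB and 143 CPM in the control, and MT-ATP6 had 3257, 2899 and 3297 CPM. MT-CO3 had the lowest mitochondrial fold in S1650b, with 4249 CPM in S1650b, 4622 CPM in CB and 6106 CPM in the control, 0.696-fold (interval 0.690 to 0.702). MT-ND3 had 1336 CPM in S1650b, 1533 CPM in CB and 1769 CPM in the control, 0.755-fold in S1650b. Both particle libraries were thus below the control for MT-ATP8, MT-ATP6, MT-CO3 and MT-ND3, as they were for MT-ND1 and MT-CO2.

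MT-ND4L and MT-ND4, which also share 1 bicistronic RNA, had the highest folds in S1650b. MT-ND4 had 4637 CPM in S1650b, 2930 CPM in CB and 3238 CPM in the control, 1.43-fold in S1650b (interval 1.42 to 1.45). MT-ND4L had 740 CPM in S1650b, 497 CPM in CB and 533 CPM in the control, 1.39-fold in S1650b (interval 1.35 to 1.42). MT-ND5 stood in the other order, with 2512 CPM in S1650b, 3109 CPM in CB and 3009 CPM in the control. MT-ND6, the 1 member encoded on the minus strand, had 1059 CPM in S1650b, 947 CPM in CB and 1052 CPM in the control. The strand setting of counting is not stated, so the MT-ND6 counts may include reads from the opposite strand. MT-CYB, the cytochrome b of complex III, had 3183 CPM in S1650b, 2000 CPM in CB and 2554 CPM in the control, with a log2 fold of 0.32 in S1650b over the control.

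The reading frames of both bicistronic pairs overlap, so reads from the shared bases can be counted to either gene or to neither. The overlaps are printed here with the shared bases in capitals between 20 flanking bases on each side, from GENCODE 29 transcripts on GRCh38, plus strand. The MT-ATP8 and MT-ATP6 stretch is chrM:8507-8592 with 46 shared bases, and the MT-ND4L and MT-ND4 stretch is chrM:10740-10786 with 7 shared bases.
MT-ATP8 and MT-ATP6: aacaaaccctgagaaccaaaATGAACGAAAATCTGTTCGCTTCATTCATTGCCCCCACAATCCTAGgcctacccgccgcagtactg
MT-ND4L and MT-ND4: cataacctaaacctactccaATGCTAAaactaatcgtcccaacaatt
The shared bases are 22.2% of MT-ATP8 and 2.36% of MT-ND4L. The folds within each pair were close on the scaled counts, 0.932 and 0.988 for MT-ATP8 and MT-ATP6 and 1.39 and 1.43 for MT-ND4L and MT-ND4, all S1650b over control. With the length and GC trends removed, the log2 folds of MT-ATP8 and MT-ATP6 in that comparison ran from -0.38 to -0.037.

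**Figure D4:**
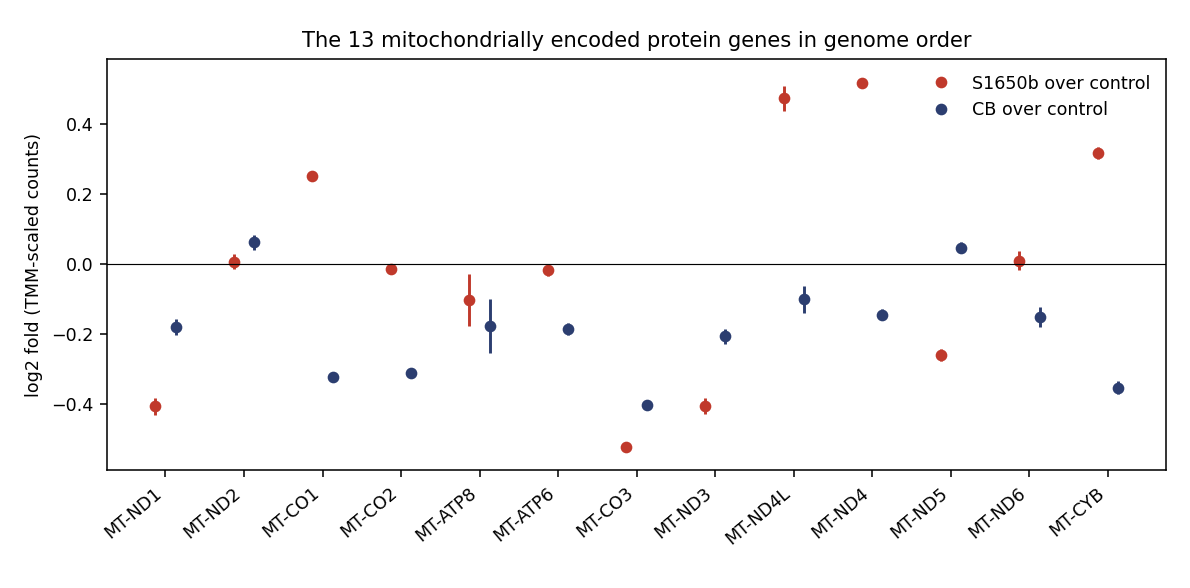
Log2 fold over the control library (vertical axis, TMM-scaled counts) of the 13 mitochondrially encoded protein genes in genome order, with S1650b and CB as points and 95% counting intervals as vertical bars. The S1650b points are lowest at MT-CO3 and highest at MT-ND4L and MT-ND4, while the CB points lie at or below 0 except at MT-ND2 and MT-ND5.

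In CB the interval lay below 1 for 11 of the 13 mitochondrial genes (84.6%) and above 1 for MT-ND2 and MT-ND5. Over all genes 25.9% had an interval below 1 and 27.7% above. The mitochondrial intervals are narrow, with a median half-width of 0.019 on the log2 scale against 0.077 for the nuclear genes. Even small differences therefore lie outside them, and the share over all genes is not a like background. The median log2 fold was -0.18 and the summed level 0.842-fold that of the control. None of the 13 passed 1.5-fold, where 10.4% of all genes were called lower and 4.86% higher. The 3 complex IV genes and MT-CYB were lowest, between 0.757-fold for MT-CO3 and 0.805-fold for MT-CO2. Between the particle libraries, MT-CYB and MT-ND4 were higher in S1650b than in CB, by 1.59-fold and 1.58-fold. These are 2 of the 13 (15.4%), where 26% of all genes were called higher in S1650b than in CB. None of the 13 was called lower, where 20.8% of all genes were, and the median log2 fold of the 13 genes was 0.16. With the length and GC trends removed, MT-ND3 was called lower in S1650b against the control, at a log2 fold of -0.65. The mitochondrial ribosomal RNAs are no members but come from the same transcripts: MT-RNR2 was 1.27-fold the control in S1650b and 0.782-fold in CB, and MT-RNR1 had 16501 counts in S1650b, 10109 in CB and 11642 in the control. Nuclear pseudogenes of the mitochondrial protein genes held 0.0411% of counts in S1650b, 0.0372% in CB and 0.0380% in the control.

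On the deposited FPKM scale, which divides by exon length, mitochondrial genes stood far above nuclear genes in every library. The median level was 2760 FPKM in S1650b, 1910 FPKM in CB and 2231 FPKM in the control for the 13 mitochondrial genes, and 28.3, 55.3 and 47.9 FPKM for the 82 nuclear genes. MT-ATP8 was the lowest mitochondrial gene in each library, at 638 FPKM in S1650b, 638 FPKM in CB and 690 FPKM in the control. It lay above ATP5F1B, the highest nuclear gene, in S1650b (291 FPKM) and the control (586 FPKM), and below it in CB (680 FPKM). MT-ATP8 shares bases with MT-ATP6, and reads there can be counted to either gene or to neither, so the level and rank of MT-ATP8 are uncertain. FPKM followed the summed length of all annotated exons within 1% for 95 of 95 members, so the level of a gene with many annotated isoforms is understated.

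The promoters of the nuclear genes were searched for motifs of 2 known regulator families. RefSeq promoters on GRCh38.p14, from 250 bases before to 50 bases after the start, were matched for 71 of the 91 nuclear genes. The NRF1 motif, the run of 10 capitals in the SDHD, ATP5F1C and NDUFB4 windows printed here, was searched on both strands and was present in 4 of 71 (5.63%), where 1.24% of all 35116 promoters and 1.96% of promoters of genes at 1 CPM or more hold it. The ETS motif CCGGAAGT, also searched on both strands, was present in 10 of 71 (14.1%), where 4.14% of all promoters and 7.45% of promoters of genes at 1 CPM or more hold it. Neither motif contains the other, and 1 gene held both. These 60-base windows before the RefSeq start, all of genes on the plus strand, show where the letters lie in 6 of the genes, with every full match of either motif in capitals. SDHD is the gene that holds both.
SDHD, chr11:112086743-112086802, NRF1 and ETS: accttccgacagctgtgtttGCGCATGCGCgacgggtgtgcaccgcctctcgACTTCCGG
ATP5F1C, chr10:7788117-7788176, NRF1: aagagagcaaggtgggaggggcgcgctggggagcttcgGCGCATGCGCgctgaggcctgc
NDUFB4, chr3:120596157-120596216, NRF1: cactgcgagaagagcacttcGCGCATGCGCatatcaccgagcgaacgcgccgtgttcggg
COX8A, chr11:63974560-63974619, ETS: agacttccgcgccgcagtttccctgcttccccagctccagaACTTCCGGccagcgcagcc
COX5B, chr2:97646002-97646061, ETS: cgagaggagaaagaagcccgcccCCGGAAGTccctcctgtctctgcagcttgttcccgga
UQCRH, chr1:46303631-46303690, ETS: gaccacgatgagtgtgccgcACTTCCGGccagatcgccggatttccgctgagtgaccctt
In S1650b over the control the genes with an NRF1 match in these windows had log2 folds of -0.81 (SDHD, which also has an ETS match), -0.61 (ATP5F1C) and -0.54 (NDUFB4), and those with an ETS match alone -1.09 (COX8A), -0.97 (COX5B) and -0.92 (UQCRH). COX8A, COX5B and UQCRH were printed because their folds in S1650b were the lowest among the genes with the ETS motif. The log2 folds of all 10 genes with that motif ran from -1.09 to -0.15. Genes without a match were lower too: the median log2 fold was -0.59 with the NRF1 motif and -0.75 without it, and -0.83 with the ETS motif and -0.71 without it, among 66 matched genes at 1 CPM or more. A match is a description of these letters and does not show binding.

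Genes that build, regulate and surround the chain were counted by the same rule in 11 lists, read against the background of 19.2% lower and 22.1% higher for S1650b over control and 10.4% lower and 4.86% higher for CB over control. Among 49 assembly factors 13 were lower in S1650b than in the control and 0 higher, with a median log2 fold of -0.43, among them FOXRED1, a complex I assembly factor, 2.10-fold lower, and UQCC2, of complex III, 1.98-fold lower. Among 14 genes of the tricarboxylic acid cycle, which delivers electrons to the chain, 6 were lower and 0 higher, among them IDH3B at 1.91-fold and SUCLG1 at 1.82-fold lower. With the length and GC trends removed 3 of the 14 were lower, against 17.3% of all genes, and IDH3B was no longer called, at a log2 fold of -0.47. Among 20 protein import genes 9 were lower and 0 higher, including the chaperone TIMM10 at 2.59-fold and the import pore TOMM40 at 2.23-fold lower. With both trends removed 5 of the 20 were lower and 1 was higher. Of 17 electron carriers and quinone-linked enzymes 9 were lower, with COQ2 of ubiquinone synthesis 2.51-fold and ETFB 2.13-fold lower, and 1, ETFDH, was 1.56-fold higher. With both trends removed 9 of these 17 were lower and 0 higher, and 11 of the 49 assembly factors were lower and 0 higher. Of 7 ATP, ADP and phosphate carriers 2 were lower, SLC25A5 at 1.82-fold and SLC25A6 at 1.72-fold.

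The remaining lists held genes in both directions or few called genes. Among 28 genes of mitochondrial DNA transcription and RNA processing 7 were higher and 3 lower in S1650b than in the control, with a median log2 fold of 0.028. LRPPRC, which stabilises mitochondrial mRNAs, was 2.0-fold higher and FASTKD2 1.79-fold higher, while SLIRP, the partner of LRPPRC, was 1.67-fold lower and HSD17B10, a subunit of mitochondrial RNase P, 1.68-fold lower. With the length and GC trends removed, 1 of the 28 was higher and 2 were lower, and the log2 folds of LRPPRC and FASTKD2 were 0.18 and 0.21. None of 8 genes of mitochondrial DNA replication was called in either direction, at a median of -0.29. Among 12 regulators of respiratory genes 2 were higher, CREB1 at 1.98-fold and GABPA, a subunit of GABP, at 1.90-fold, and 2 were lower, HCFC1 at 1.57-fold and PPARGC1B at 1.51-fold. Among 8 cristae genes OPA1 was 2.10-fold and APOOL 1.71-fold higher and 4 were lower, among them MICOS13 at 2.05-fold and CHCHD3 at 1.68-fold. With both trends removed 4 regulators were lower and 0 higher, and 2 cristae genes were lower and 0 higher, with MICOS13 no longer called at a log2 fold of -0.46. Of 12 chaperones and proteases 5 were lower, with TRAP1 at 2.19-fold and LONP1 at 2.06-fold, and YME1L1 was 1.72-fold higher, or 0.19 on the log2 scale with both trends removed. Of 7 antioxidant enzymes 2 were lower, TXN2 at 1.75-fold and PRDX5 at 1.69-fold. With both trends removed 4 of the chaperones and proteases, 3 of the antioxidant enzymes, 2 of the ATP, ADP and phosphate carriers and 1 of the replication genes were lower, and none of these lists held a higher gene.

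In CB the 11 lists held few called genes, and each of them is named here, a choice made with the values in view. Called higher were 2 of 12 chaperones and proteases, 2 of 28 transcription and RNA processing genes, 1 of 20 import genes and 2 of 17 electron carriers and quinone-linked enzymes. Called lower was 1 of those 17. The other lists held no called gene, where 4.86% of all genes were called higher and 10.4% lower. The chaperonin pair HSPD1 and HSPE1 were 1.66-fold and 1.57-fold higher than in the control. PNPT1 and MTERF3, of mitochondrial RNA processing and transcription, were 1.65-fold and 1.55-fold higher, and the import motor gene TIMM44 was 1.58-fold higher. CYCS, cytochrome c itself, had 5025 counts in S1650b, 9599 in CB and 6180 in the control, 1.53-fold higher in CB than in the control. PDSS1, of ubiquinone synthesis, was 1.94-fold higher in CB than in the control, and SQOR, sulfide quinone oxidoreductase, was 1.92-fold lower.

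**Figure D5:**
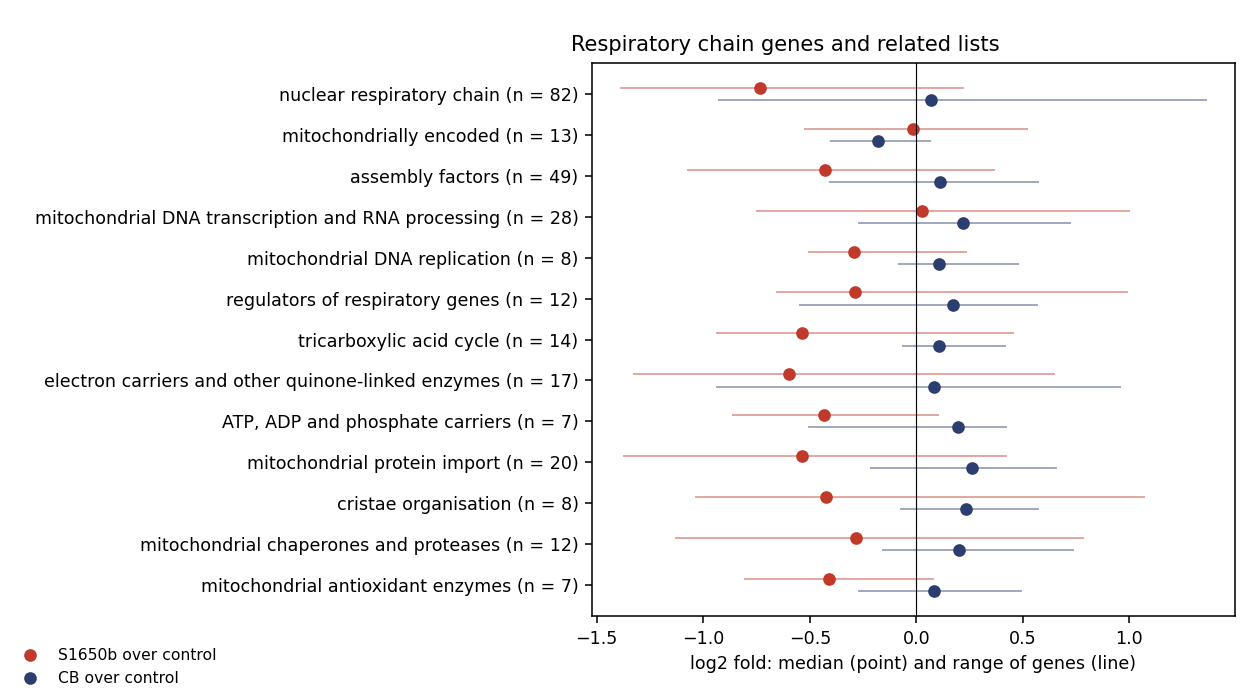
Median log2 fold over the control (points) and range over genes (lines) for the nuclear and mitochondrial respiratory chain genes and the 11 related lists, with S1650b and CB in separate colours and the number of genes at 1 CPM or more in brackets. For S1650b the nuclear respiratory chain has the lowest median on these scaled counts, -0.73, although with length and GC trends removed the electron carriers and quinone-linked enzymes have -0.73 and the nuclear chain -0.64, and before that removal every list except mitochondrial DNA transcription and RNA processing has a median below 0.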

How the data were processed

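Per the labels' protocols, total RNA was extracted with Trizol from 3 cultures and sequenced after a NEBNext Ultra library preparation. The authors deposited whole-number counts per gene and FPKM values per gene, which are normalised to gene length and depth. Per the submitters' processing notes, CASAVA 1.7 was used with the builds mm8 and mm9, which are of mouse and conflict with the human identifiers. The aligner, the counter and its strand setting were not given in the sources used. All 58735 identifiers occur in GENCODE 29 (GRCh38), which gave positions, exon lengths and GC. The TMM factors of edgeR 4.0.16 (R 4.3.3), 1.09 in S1650b, 0.957 in CB and 0.956 in the control, were used for scaling. Genes at 1 CPM or more in at least 1 library were kept (14619), and 0.5 counts were added before log2. Fold intervals are exact conditional binomial (Clopper-Pearson) intervals at 95%. Length and GC trends were removed by lowess with a span of 30%, in Python 3.11.15 with statsmodels 0.14.6 and scipy 1.17.1. No model was fitted across genes, because each group holds 1 library. The intervals and the calling rule were tried on simulated counts with counting error alone, and the trend removal on 1 simulated length trend. The TMM scaling and the removal of the GC trend were not simulated.

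The members and gene lists were chosen with earlier results of these data known. Named genes were the mitochondrial genes, SDHA to SDHD, CYC1, the alternative isoforms, and per complex the 2 lowest and 2 highest folds in S1650b and the lowest and highest in CB, with up to 2 genes per list and direction. NDUFS1, NDUFA4, ATP5MC3, ATP5IF1, UQCRHL and the genes of the promoter windows are named beyond it, with their values already in view. The 14 alternatives covered scaling, filter, added count, threshold, gene set and trends, with DESeq2 1.42.0 size factors among them.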

Additional observations from a re-analysis of the deposited data

How the results depend on the processing

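Values are log2 folds or counts of genes. For S1650b with both trends removed, and against control with the length trend removed, the share of all genes called is given above. No such share is given for the other settings, so their counts have no background here. Of the 14 alternatives 12 give a median, since the other thresholds change counts alone, and in those 12 the nuclear median stayed below 0 in S1650b against control and against CB. Scaling by total counts raised the median of all genes by 0.19 in both comparisons. It gave 36 and 42 nuclear genes lower against control and against CB, nuclear medians of -0.54 and -0.59, mitochondrial medians of 0.18 and 0.35, and 2 and 4 mitochondrial genes higher. With the length trend removed, the nuclear medians were -0.62 against control and -0.67 against CB, the mitochondrial medians 0.19 and 0.35, and 2 and 4 mitochondrial genes were higher. With the GC trend removed, the mitochondrial median was -0.40 against control with 3 genes lower, and it reversed to -0.20 against CB with 1 gene lower and 0 higher. With both removed, the nuclear medians were -0.64 against control and -0.68 against CB and the mitochondrial medians -0.057 and 0.097, with 1 nuclear gene higher and 1 mitochondrial gene lower against control. The mitochondrial median minus the nuclear median was 0.72 in S1650b against control and 0.94 against CB. It was 0.81 against control with the length trend removed, 0.39 and 0.61 against control and CB with the GC trend removed, and 0.58 and 0.78 with both removed. In CB against control it was -0.25, and -0.16 with the length trend removed.

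The mitochondrial median of S1650b against control crossed 0 with median-of-ratios scaling (0.016), upper quartile scaling (0.036) and protein-coding genes only (0.043). Against CB it was 0.26 with upper quartile scaling, 0.24 with protein-coding genes and 0.088 from FPKM, with 4 genes higher in each of the first pair, and the nuclear median under upper quartile scaling was -0.69. In CB against control the mitochondrial median was -0.14 by median of ratios, -0.22 by upper quartile, -0.12 from FPKM, -0.20 with protein-coding genes, -0.083 with length, -0.21 with GC and -0.12 with both trends removed. At a 2-fold threshold 8 nuclear genes were lower in S1650b against control and 18 against CB, and 0 mitochondrial genes were higher against CB. At the lower threshold tried, 3 mitochondrial genes were lower and 2 higher in S1650b against control, 4 were higher against CB, and in CB against control 1 nuclear gene was lower, 3 were higher and 2 mitochondrial genes were lower. The cause of these movements was not tested. No paired analysis was possible because each group holds 1 library, and for the same reason no library could be left out. Counting error was small for most members, and NDUFV2, NDUFA13 and NDUFA7 are limited by depth.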
